A study of Danio rerio with 8 samples.

Results

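The genes described here encode the machinery that copies DNA, from the proteins that mark and license replication origins to the helicase, the polymerases, the sliding clamp and the enzymes that join the new strands. A list of 40 symbols, chosen with earlier results of these data known, was matched to the gene names of the counts. All 40 were found, as 41 of the 32520 genes listed, because the symbol *mcm6* is carried by both ENSDARG00000057683 and ENSDARG00000033231. They were read in whole zebrafish embryos at 8 hours post fertilization (hpf), during gastrulation. The wild-type group (4 libraries) and the *miR-34a-/-* group (4 libraries) were both in the *casper* background, a line with little pigment. The *miR-34a-/-* embryos were maternal-zygotic homozygotes from a single CRISPR/Cas9 deletion line, so that neither the mother nor the embryo carried the gene. This line was kept separately, and the paper states that the wild-type embryos were not siblings and may be somewhat divergent genetically. Effects of the deletion and of the line cannot be told apart here. The question of the comparison was which transcripts change when miR-34a, a microRNA induced by p53, is lost.

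Each library was made from polyadenylated RNA of a pool of embryos, 30 according to the design and between 30 and 50 according to the extraction protocol. Nothing in the labels says that the pools came from separate clutches, so the p-values measure the spread between these libraries, which may be technical. Libraries held between 7132045 and 15724724 counts, and a single count stood for 0.0642 to 0.140 CPM (counts scaled to 1000000 per library). The median total was 9725207 in wild-type and 10350116 in *miR-34a-/-* libraries, and the 10 most counted genes took between 8.45% and 8.92% of the counts of a library. Pairs of libraries differed beyond sampling noise, with a chi-square per gene of at least 1.59, so none was taken for a copy of another. No read was counted for *mir34a* in any library (0 counts, which allows up to 3 in each), so it gave no check of the genotype labels.

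Before a cell divides, the origin recognition complex (ORC) binds replication origins and, with Cdc6 and Cdt1, loads the ring of Mcm2 to Mcm7, while geminin holds Cdt1 back from loading again. In S phase, Cdc45 and the GINS complex join the ring to form the active helicase. Polymerase alpha-primase lays down primers, the clamp loader RFC places the clamp Pcna, polymerases delta and epsilon extend the strands, RPA coats single-stranded DNA, and Fen1 and Lig1 finish the lagging strand. Early zebrafish embryos divide fast on a large store of maternal transcripts of these genes, and transcripts made by the embryo replace that store around and after the blastula stage.

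Most of the replication genes were lower in *miR-34a-/-* embryos. Of the 41, 31 fell, 2 rose (*gins2* and *rfc1*) and 8 were not called, where a call is an adjusted p-value under 0.05 (quasi-likelihood test of edgeR, adjusted by Benjamini-Hochberg over all genes tested). All 41 passed the filter on low counts. Among the 13842 genes tested, 45.4% were called, 22.4% lower and 23.0% higher, while 75.6% of the replication genes were lower and 4.88% higher. The median log2 fold change (*miR-34a-/-* over wild-type) was -0.34 for the replication genes and -0.00 for all genes tested. Most of these decreases were small. Only 5 of the genes that fell passed a 1.5-fold change (*mcm2*, *mcm4*, *orc4*, *gins4* and *prim1*), or 12.2%, where 8.76% of all genes tested did, and of the genes that rose only *gins2* did, or 2.44%, where 8.84% of all genes tested did.

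The summed reads of the 41 genes separated the genotypes. They took 0.873%, 0.864%, 0.873% and 0.869% of all counts in wild-type replicates 1 to 4, and 0.663%, 0.667%, 0.681% and 0.659% in *miR-34a-/-* replicates 1 to 4. Abundant genes weigh most in this sum: the MCM2-7 genes gave 4151 to 4246 of 8610 to 8763 CPM in wild-type libraries. Summed by role, only *cdc45* with the GINS genes overlapped, at 135 to 148 CPM in wild-type and 128 to 147 CPM in *miR-34a-/-* libraries. In a whole embryo, fewer cells of a type and less RNA per cell cannot be told apart. The genotypes did not overlap for 29 of the 41 genes, against 38.8% of all genes tested. Of these, 28 were lower and 1 was higher, where 19.2% and 19.6% of all genes tested were. Genes with many reads are called more often. Among the 3273 genes at or above the replication genes' median level of 53.4 CPM, a background chosen after seeing the data, 26.2% were lower and 28.2% higher. Of the 21 replication genes at or above that level, 20 were lower and 1 was not called.

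**Figure D1:**
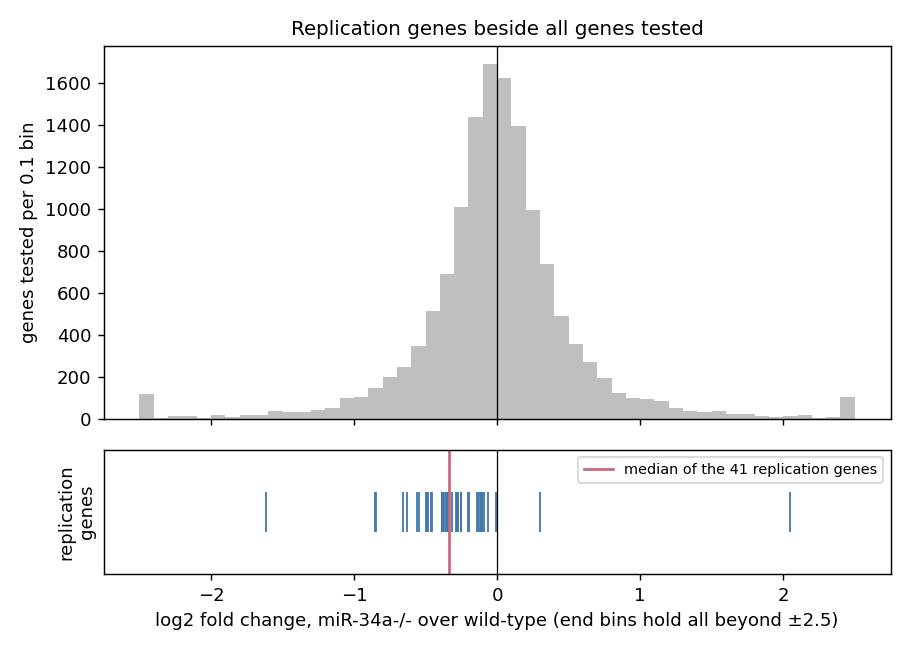
Log2 fold change (*miR-34a-/-* over wild-type) of all 13842 genes tested, as a histogram in bins of 0.1 (the end bins hold all genes beyond), and of the 41 replication genes, 1 tick each. The replication genes lie mostly to the left of 0, with their median at -0.34, *prim1* farthest left at -1.61 and *gins2* farthest right at 2.05.

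**Figure D2:**
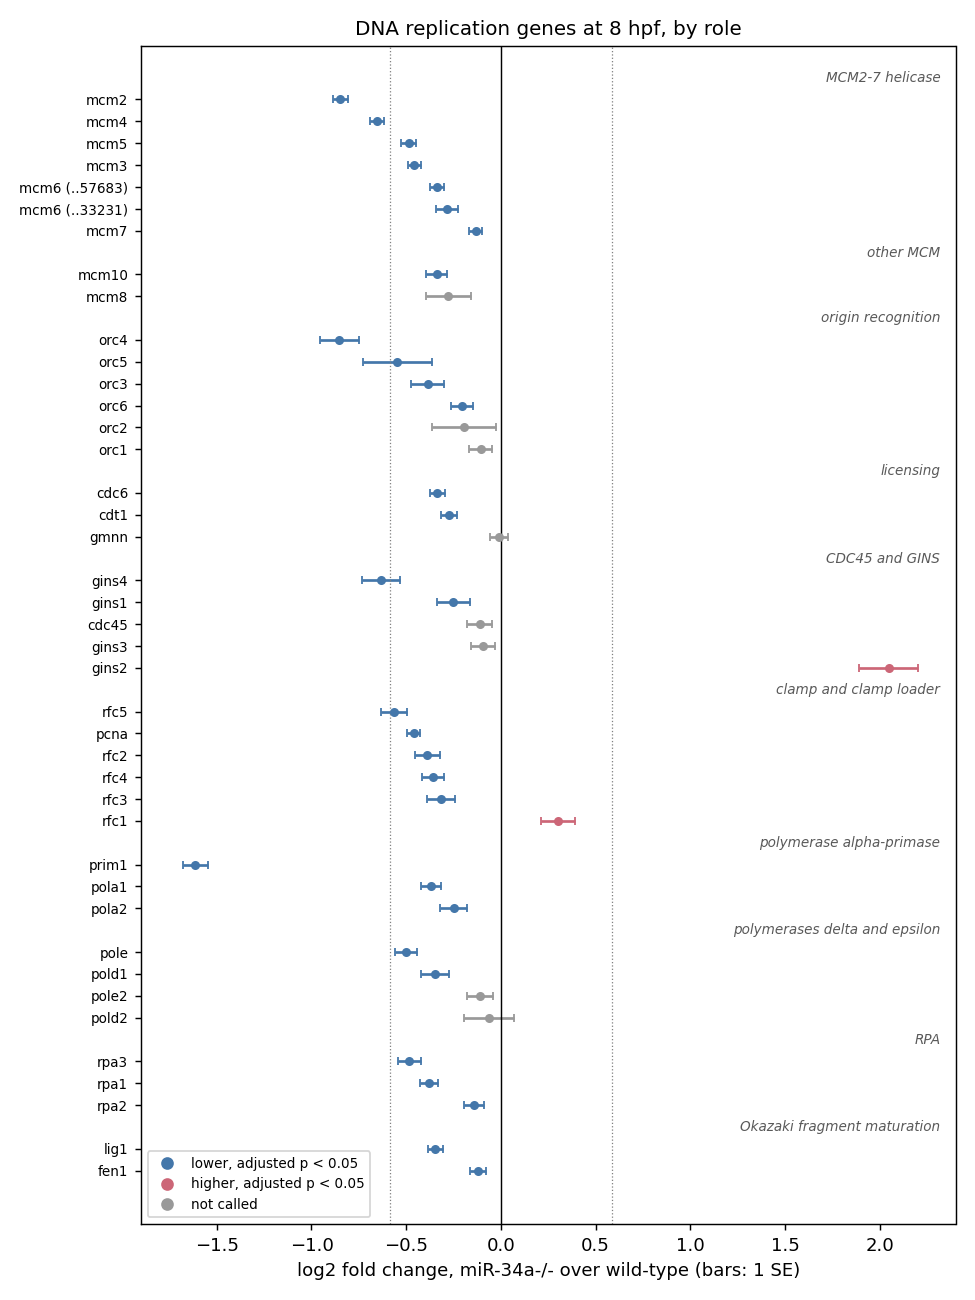
Log2 fold change of each replication gene by role, with bars of 1 SE (n = 4 libraries per genotype), dotted lines at 1.5-fold, and colours for the call (edgeR, adjusted p-value under 0.05). Of the 41 genes, 31 are called lower and 2, *gins2* and *rfc1*, higher.

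The MCM2-7 ring is the core of the replicative helicase. All 7 genes listed under its subunits, both of those named *mcm6* included, fell. *mcm2* was read at 495, 474, 489 and 492 CPM in wild-type replicates 1 to 4 and at 272, 265, 282 and 267 CPM in *miR-34a-/-* replicates 1 to 4. The genotypes were far apart relative to the spread within each of them. Its level went from 488 ± 9.23 to 271 ± 7.76 CPM (n = 4, SD), a log2 fold change of -0.85 (SE 0.04, edgeR adjusted p = 3.66e-16). *mcm4*, which encodes another subunit of the ring, gave 462, 472, 478 and 467 CPM in the wild-type and 296, 294, 308 and 295 CPM in the *miR-34a-/-* libraries. This was a log2 fold change of -0.66 (SE 0.04, edgeR adjusted p = 4.9e-14), again without overlap.

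The other subunit genes of the ring fell by less. On the log2 scale the change was -0.49 (SE 0.04) for *mcm5*, -0.46 (SE 0.03) for *mcm3* and -0.34 (SE 0.04) for *mcm6* (ENSDARG00000057683). The second gene named *mcm6*, ENSDARG00000033231, was read at a much lower count, with 58.6 ± 2.27 CPM in the wild-type and 48.1 ± 2.44 CPM in the *miR-34a-/-* embryos (n = 4, SD). Its log2 fold change was -0.28 (SE 0.06), and reads of these copies could have been split between them. RefSeq lists an *mcm6* and an *mcm6l* in zebrafish, and which of these each identifier stands for was not settled here. *mcm7* changed least, from 1072 ± 42.2 to 977 ± 23.2 CPM (n = 4, SD), a log2 fold change of -0.13 (SE 0.04, edgeR adjusted p = 0.00353). Even for *mcm7* no *miR-34a-/-* library reached the lowest wild-type library.

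Since the subunit genes fell by different amounts, their shares of the complex's reads moved. This share is counted within a library and does not depend on how libraries are scaled to each other. It is not a ratio of molecules, because reads also depend on transcript length. *mcm2* took between 11.4% and 11.8% of the MCM2-7 reads in wild-type libraries and between 8.31% and 8.94% in *miR-34a-/-* libraries. *mcm4* went from 11.2% ± 0.274 to 9.43% ± 0.230 of these reads (SD, n = 4), also without overlap. *mcm7* moved the other way, from between 24.7% and 26.5% to between 29.9% and 31.5%. The share of *mcm6* (ENSDARG00000057683) also rose, narrowly without overlap, from between 15.76% and 16.18% to between 16.23% and 17.33%. The shares of *mcm3*, *mcm5* and ENSDARG00000033231 overlapped between the genotypes.

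**Figure D3:**
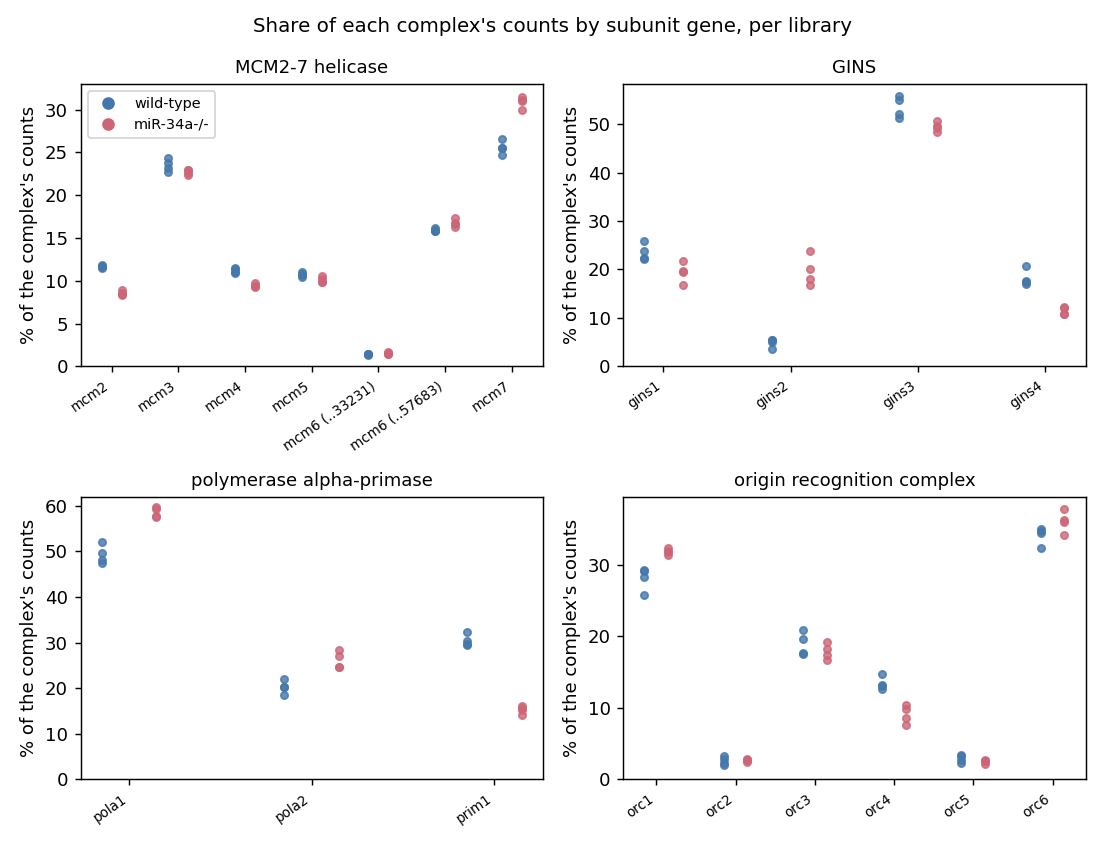
Share of the reads of each complex, in percent, that fell on each subunit gene in every library, for the MCM2-7 helicase, GINS, polymerase alpha-primase and the origin recognition complex (1 point per library, 4 per genotype). In *miR-34a-/-* libraries the shares of *mcm2*, *mcm4*, *prim1*, *orc4*, *gins1*, *gins3* and *gins4* lie below all wild-type libraries. Those of *mcm6* (ENSDARG00000057683), *mcm7*, *orc1*, *pola1*, *pola2* and *gins2* lie above them. Shares within a complex depend on each other, so a share can move without a change in that gene's own level.

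Outside the ring, *mcm10*, whose product helps to start and hold the replication fork together, was also lower. It was read at 81.0, 81.6, 80.8 and 86.0 CPM in the wild-type and at 63.2, 63.0, 72.0 and 62.9 CPM in the *miR-34a-/-* libraries. The highest *miR-34a-/-* value, in replicate 3, still lay below all wild-type values. This was a decrease of 0.34 on the log2 scale (SE 0.06, edgeR adjusted p = 1.65e-05). *mcm8*, which encodes a helicase of homologous recombination, was read at 10.9 ± 1.48 and 9.08 ± 0.659 CPM (n = 4, SD) and was not called (log2 fold change -0.28, SE 0.12, edgeR adjusted p = 0.0601). It was called lower without wild-type replicate 4 or without *miR-34a-/-* replicate 1, where the adjusted p-value was as low as 0.0229.

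Among the 6 ORC genes, 4 fell and *orc1* and *orc2* were not called. *orc4* changed most, with 26.5, 28.4, 26.1 and 21.7 CPM in the wild-type and 16.6, 15.4, 12.2 and 13.1 CPM in the *miR-34a-/-* libraries. Wild-type replicate 4 was the lowest of its genotype but remained above every *miR-34a-/-* library. In edgeR's fit *orc4* had a log2 fold change of -0.85 (SE 0.10, edgeR adjusted p = 1.03e-07). Its share of the ORC reads was between 12.6% and 14.7% in wild-type and between 7.59% and 10.4% in *miR-34a-/-* libraries.

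The rest of the complex changed less. *orc3* (log2 fold change -0.39, SE 0.09), *orc5* (-0.55, SE 0.18) and *orc6* (-0.20, SE 0.06) fell, and of these only *orc6* was without overlap between the genotypes. *orc5* had few reads, at 5.62 ± 1.32 CPM in the wild-type and 3.94 ± 0.514 CPM in the *miR-34a-/-* embryos (n = 4, SD). The edgeR adjusted p-value was 0.0159, and it rose to as much as 0.0890 under the alternatives. Without wild-type replicate 1, wild-type replicate 3 or *miR-34a-/-* replicate 4, and with DESeq2, *orc5* was not called. *orc1*, the subunit gene whose product is known in human cells to vary over the cell cycle, had a log2 fold change of -0.11 (SE 0.06, edgeR adjusted p = 0.162). *orc2*, with few reads as well, had -0.20 (SE 0.17, edgeR adjusted p = 0.359).

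Of the licensing factors, the loader genes fell and the gene of the Cdt1 inhibitor did not pass the test. *cdc6* gave 448, 513, 484 and 479 CPM in the wild-type and 373, 378, 382 and 391 CPM in the *miR-34a-/-* libraries. The spread was wider among wild-type libraries, and the genotypes did not overlap. Its log2 fold change was -0.34 (SE 0.04, edgeR adjusted p = 1.42e-07). *cdt1*, which brings the MCM ring to the origin, went from 455 ± 18.8 to 376 ± 19.3 CPM (n = 4, SD), a log2 fold change of -0.27 (SE 0.04). *gmnn*, which encodes geminin, was read at 149 ± 6.61 CPM in the wild-type and 148 ± 7.24 CPM in the *miR-34a-/-* embryos (n = 4, SD), with a log2 fold change of -0.01 (SE 0.05, edgeR adjusted p = 0.877).

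The genes that complete the helicase went in different directions. *gins2*, which encodes the Psf2 subunit of GINS, was the only replication gene to rise past 1.5-fold. It gave 5.15, 3.12, 4.67 and 5.04 CPM in the wild-type and 18.7, 17.6, 23.6 and 14.8 CPM in the *miR-34a-/-* libraries. These CPM stood for between 33 and 53 counts in a wild-type library and between 179 and 231 counts in a *miR-34a-/-* library. The lowest *miR-34a-/-* library was well above the highest wild-type library. The log2 fold change was 2.05 (SE 0.15, edgeR adjusted p = 2.2e-11), or 4.13-fold, and stayed between 1.89 and 2.16 on the log2 scale under the alternatives.

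*gins4*, which encodes the Sld5 subunit, went the other way. Its values were 16.8, 18.5, 15.9 and 16.1 CPM in the wild-type and 9.93, 11.8, 10.8 and 10.8 CPM in the *miR-34a-/-* libraries, without overlap. It fell by 0.63 on the log2 scale (SE 0.10, edgeR adjusted p = 1.07e-05). *gins1*, the gene of the Psf1 subunit, fell by 0.25 on the log2 scale (SE 0.09, edgeR adjusted p = 0.0223). Its adjusted p-value reached 0.0982, and it was not called without wild-type replicate 1, without *miR-34a-/-* replicate 3 or with DESeq2. *gins3* (Psf3; log2 fold change -0.09, SE 0.06) and *cdc45* (-0.11, SE 0.07) were not called.

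Within GINS, the reads were divided differently in the genotypes. *gins2* took between 3.48% and 5.46% of the reads of the complex in wild-type and between 16.8% and 23.9% in *miR-34a-/-* libraries. The *gins4* share lay between 16.9% and 20.7% in wild-type and between 10.7% and 12.3% in *miR-34a-/-* libraries. *gins1* and *gins3* also took smaller shares, without overlap between the genotypes. Shares within a complex are relative, so the larger *gins2* share by itself lowers those of the other subunits. The CPM of *gins3* overlapped between the genotypes, and it was not called.

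**Figure D4:**
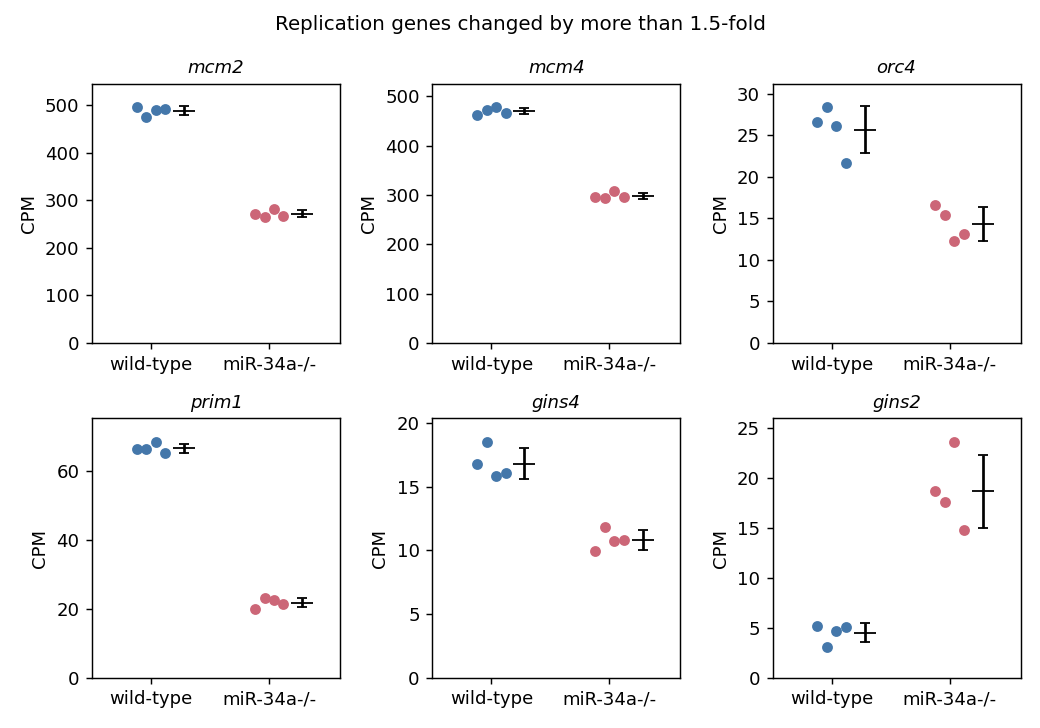
CPM of the 6 replication genes changed by more than 1.5-fold, with 1 point per library, the mean as a dash and bars of 1 SD (n = 4 per genotype). The genotypes do not overlap for any of them, and *gins2* alone is higher in *miR-34a-/-* libraries, at 14.8 to 23.6 CPM against 3.12 to 5.15 CPM.

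*prim1*, which encodes the catalytic subunit of primase, showed the largest decrease of the 41 genes. It was read at 66.3, 66.4, 68.5 and 65.2 CPM in the wild-type and at 20.0, 23.0, 22.6 and 21.5 CPM in the *miR-34a-/-* libraries. The libraries of a genotype lay close together, and the genotypes were widely separated. The log2 fold change was -1.61 (SE 0.07, edgeR adjusted p = 4.16e-17), 3.06-fold lower, and ranged from -1.64 to -1.58 on the log2 scale under the alternatives. Its partners in the complex fell by far less. *pola1*, the gene of the catalytic polymerase subunit, had a log2 fold change of -0.37 (SE 0.05) and *pola2*, the gene of an accessory subunit, -0.25 (SE 0.07). *prim1* took between 29.4% and 32.3% of the reads of these 3 genes in wild-type and between 14.0% and 16.0% in *miR-34a-/-* libraries.

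*prim2*, the gene of the other primase subunit, was not on the list of members and is named after its value was seen. It went from 33.3 ± 3.48 to 20.0 ± 1.70 CPM (n = 4, SD), a log2 fold change of -0.73 (SE 0.09, edgeR adjusted p = 9.6e-08).

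*pcna*, the sliding clamp gene and a common marker of proliferating cells, was read at 1425, 1430, 1389 and 1322 CPM in the wild-type and at 1003, 999, 1048 and 997 CPM in the *miR-34a-/-* libraries. No *miR-34a-/-* library came near the lowest wild-type library, and *pcna* fell by 0.46 on the log2 scale (SE 0.04, edgeR adjusted p = 2.97e-11). Of the clamp loader genes, *rfc2* (log2 fold change -0.39), *rfc3* (-0.32), *rfc4* (-0.36) and *rfc5* (-0.56) fell, with SEs between 0.06 and 0.07 and without overlap. *rfc5* was thus close to the 1.5-fold line.

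*rfc1*, which encodes the large subunit of the loader, rose, and its values per library are given after its rise was seen. It gave 27.0, 20.6, 22.0 and 19.2 CPM in the wild-type and 27.6, 26.3, 29.4 and 26.8 CPM in the *miR-34a-/-* libraries. Wild-type replicate 1 lay within the range of the *miR-34a-/-* libraries, and the other wild-type libraries lay below it. On the log2 scale the rise was 0.30 (SE 0.09, edgeR adjusted p = 0.00742). Its share of the RFC reads did not overlap, at between 7.76% and 9.96% in wild-type and between 13.2% and 14.0% in *miR-34a-/-* libraries. Because *rfc2* to *rfc5* fell, this share would rise even at an unchanged *rfc1* level. The share therefore adds no support for the rise of *rfc1*.

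Of the genes of the extending polymerases, the catalytic subunits fell. *pole*, for polymerase epsilon, was read at 84.2, 79.7, 88.2 and 85.2 CPM in the wild-type and at 61.7, 61.6, 62.2 and 54.1 CPM in the *miR-34a-/-* libraries. The lowest value belonged to *miR-34a-/-* replicate 4, and all of them lay below wild-type. Its log2 fold change was -0.50 (SE 0.06, edgeR adjusted p = 6.35e-08), and that of *pold1*, for polymerase delta, was -0.35 (SE 0.07). The accessory subunit genes *pole2* (log2 fold change -0.11, SE 0.07) and *pold2* (-0.06, SE 0.13) were not called. *pold2* was spread widely among wild-type libraries, from 8.32 CPM in replicate 2 to 14.6 CPM in replicate 1.

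The RPA genes, whose products coat single-stranded DNA, all fell. *rpa3*, the gene of the smallest subunit, gave 49.1, 50.5, 49.5 and 52.5 CPM in the wild-type and 34.4, 36.3, 36.1 and 36.8 CPM in the *miR-34a-/-* libraries. The values within a genotype lay close together. Its log2 fold change was -0.48 (SE 0.06, edgeR adjusted p = 3.05e-07), and *rpa1* had -0.38 (SE 0.05). *rpa2* changed least, with a log2 fold change of -0.14 (SE 0.05, edgeR adjusted p = 0.0273). The genotypes overlapped for *rpa2*, and 6 of the alternatives put it on the other side of the threshold, among them leaving out wild-type replicate 1 or 4 or *miR-34a-/-* replicate 1 or 4.

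Of the enzymes that finish the lagging strand, both *lig1*, the DNA ligase gene, and *fen1*, the flap endonuclease gene, fell. *lig1* was read at 455, 443, 437 and 459 CPM in the wild-type and at 352, 353, 363 and 343 CPM in the *miR-34a-/-* libraries. The groups did not overlap, and the log2 fold change was -0.35 (SE 0.04, edgeR adjusted p = 2.09e-08). *fen1* had -0.12 (SE 0.04, edgeR adjusted p = 0.0263), and its adjusted p-value reached 0.103 under the alternatives. It was not called without wild-type replicate 1 or without *miR-34a-/-* replicate 1, 2 or 4, nor without the filter on low counts.

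**Figure D5:**
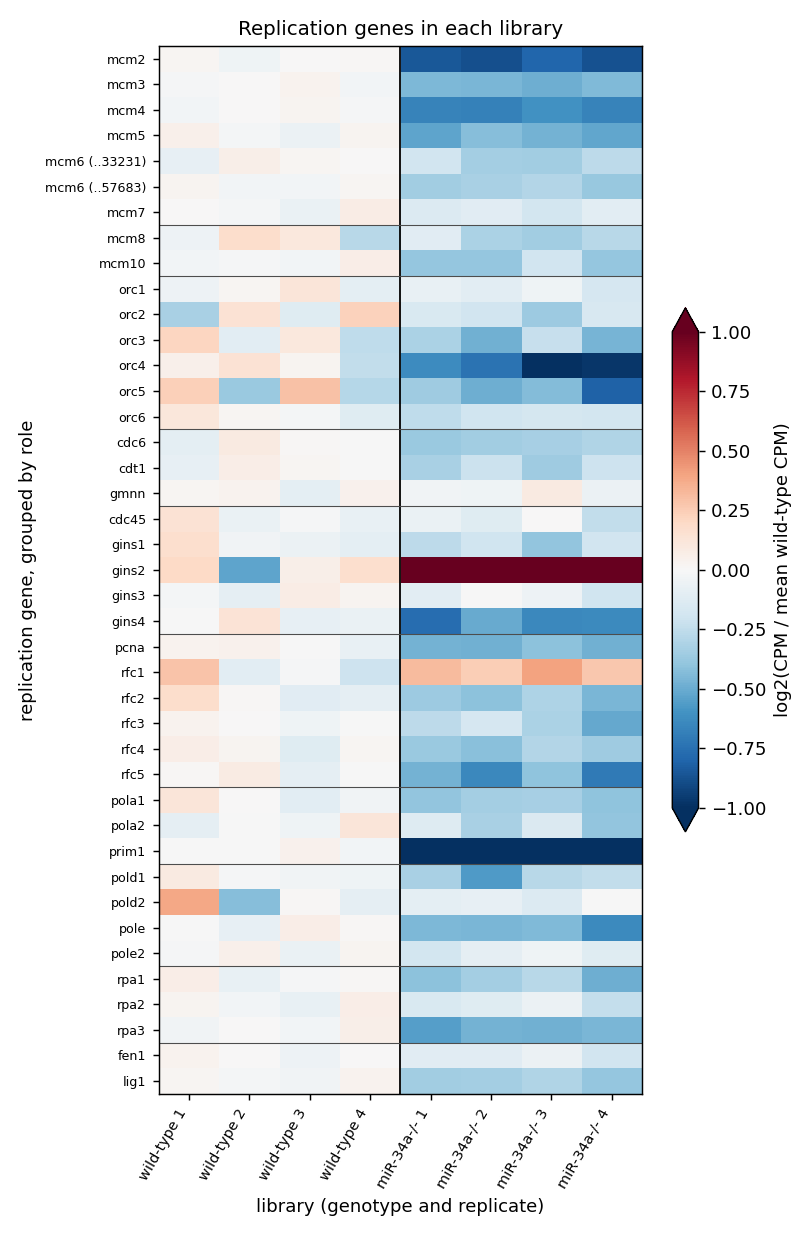
Level of each of the 41 replication genes in each library, as log2 of its CPM over the mean wild-type CPM, in rows grouped by role and with wild-type libraries on the left of the line. The colour scale ends at -1 and 1. Most rows are lower in all 4 *miR-34a-/-* libraries. *prim1* passes the lower end of the scale, as does *orc4* in *miR-34a-/-* replicate 3, and *gins2* passes the upper end.

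The 4 libraries of a genotype were alike for most of these genes. The coefficient of variation between libraries of a genotype was between 1.36% and 23.5%, with a median of 4.43% in wild-type and 5.06% in *miR-34a-/-* embryos. The 28 genes that were lower without overlap include all 7 of the MCM2-7 ring and every called gene of the clamp loader other than *rfc1*. For each of these the two-sided exact permutation test gave p = 0.0286, the smallest that 70 splits of 8 libraries allow. This value follows from the absence of overlap itself and adds no further support. The study took predicted miR-34 targets from TargetScanFish, and only part of that list could be read here. In the part read, *gins4* and *gmnn* are the only members, and other members may stand in the rest. *pcna* stands on the list of p53 targets that the study used.

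Other genes of DNA replication were read from lists of their own. The share called was 66.7% of the fork list and 50% of the origin firing list, where 45.4% of all genes tested were. Among 21 further genes of the replication fork, 11 fell and 3 rose, with a median log2 fold change of -0.22. *mcmbp*, which encodes a binding partner of the MCM proteins, fell by 0.56 on the log2 scale (SE 0.05), and *wdhd1*, whose product links polymerase alpha to the helicase, by 0.51 (SE 0.06). The 3 that rose, named after their values were seen, were the topoisomerase II genes *top2a* (log2 fold change 0.34) and *top2b* (0.35) and the nuclease gene *dna2* (0.22). Of 8 genes for factors that fire origins, 4 fell and 4 were not called, and 2 fell without *miR-34a-/-* replicate 1 or 4. Among those that fell were *lrwd1* (log2 fold change -0.23, SE 0.04), whose product binds ORC, and the kinase gene *cdk2* (-0.31, SE 0.07). Of the copies searched for, only *mcm3l*, a second gene of the *mcm3* type, was matched, and it was not called (log2 fold change 0.21, SE 0.15).

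The supply of nucleotides and the packing of new DNA were read from separate lists. The share called was 50% for deoxynucleotide supply, 66.7% for chromatin assembly and 58.3% for E2F and pocket proteins. Of all genes tested, 45.4% were called. Of 10 genes tested for deoxynucleotide supply, 3 fell and 2 rose, with a median log2 fold change of -0.06. *rrm1*, the large subunit gene of ribonucleotide reductase, fell by 0.46 on the log2 scale (SE 0.04), while the dihydrofolate reductase gene *dhfr* rose by 1.11 (SE 0.05). Of 9 genes tested for chromatin assembly at forks, 6 fell and 3 were not called, with *uhrf1* at -0.61 (SE 0.04) and *supt16h*, for a subunit of the histone chaperone FACT, at -0.43 (SE 0.04). Of 12 genes for E2F factors and pocket proteins, which control many replication genes in vertebrate cells, 7 fell and 5 were not called. *rb1* had a log2 fold change of -0.39 (SE 0.05) and *e2f8* of -0.28 (SE 0.04).

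Genes of damage tolerance and of mitochondrial DNA were read next. The share called was 12.5% of the translesion list, 33.3% of the checkpoint list and 50% of the mitochondrial list. Of all genes tested, 45.4% were called. Of 8 translesion polymerase genes, 1 was called, *poli*, which rose by 0.56 on the log2 scale (SE 0.12). Of 9 genes tested for the fork checkpoint, *atrip* (log2 fold change 0.42, SE 0.13) and *wee2* rose and *chek1*, the checkpoint kinase gene, fell (-0.76, SE 0.09). Neither rise was called with DESeq2 (0 of the 9 rose). Only 1 of the 9 rose with limma-voom, with thinned counts, and without wild-type replicate 1, 2 or 3 or *miR-34a-/-* replicate 3 or 4, and 3 rose without wild-type replicate 4, without *miR-34a-/-* replicate 1 or without the filter on low counts. Of 8 genes for the replication of mitochondrial DNA, 3 fell and 1 rose, with *twnk*, the mitochondrial helicase gene, at -0.45 (SE 0.09) and *tfam* at -0.30 (SE 0.09). The 1 that rose, *ssbp1*, was at 0.19 (SE 0.07) and was not called with DESeq2 or without wild-type replicate 3 or 4 or *miR-34a-/-* replicate 1 or 3. In this list 2 rose without wild-type replicate 2 or *miR-34a-/-* replicate 4, with the replicate block and with the likelihood ratio test. *ssbp1* and *wee2* were named after their values were seen. Whether the difference between any of these lists and the replication genes is larger than chance gives was not tested.

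Markers of cell types and of developmental timing were read beside the replication genes. Of all genes tested, 22.4% were lower and 23.0% higher. All 6 markers of mesendoderm and the organizer fell, with a summed level between 1756 and 1868 CPM in the wild-type and between 1519 and 1666 CPM in the *miR-34a-/-* libraries. *tbx16* had a log2 fold change of -0.24 (SE 0.04) and *tbxta* of -0.20 (SE 0.04). The genotypes overlapped for *noto*, *gsc* and *mixl1*, and *mixl1* was close to the threshold (edgeR adjusted p = 0.0448). Abundant genes such as *tbxta*, *tbx16* and *chrd* weigh most in the sum. Of 4 endoderm markers, 3 fell, with *sox17* at -0.50 (SE 0.08) and *foxa2* at -0.44 (SE 0.08), and a summed level between 367 and 393 CPM in wild-type and between 316 and 363 CPM in *miR-34a-/-* libraries. The 3 ectoderm markers tested were not called, with a summed level between 537 and 638 CPM in wild-type and between 523 and 626 CPM in *miR-34a-/-* libraries. Of 5 enveloping layer markers, *cldne* rose and 2 fell. Markers of red blood cells, muscle fibres and neurons, tissues that form later, were matched for 3, 2 and 2 of 5 symbols each. They summed to at most 0.915, 3.08 and 2.29 CPM in any library, and *hbae1.1* was at 0 in all libraries. The sums of the red blood cell and muscle fibre markers overlapped between the genotypes. Those of the neuron markers did not, at 0.979 to 2.29 CPM in wild-type and 0.612 to 0.732 CPM in *miR-34a-/-* libraries. Their reads were too low for the test.

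Maternal transcripts were called at 50% and blastula transcripts at 37.5%, where 45.4% of all genes tested were called. Of 12 transcripts known as maternal, 4 rose and 2 fell, with a median log2 fold change of 0.07, and *org* fell (-0.39, SE 0.08) while *buc* rose (1.19, SE 0.31), with 9.18 CPM in *miR-34a-/-* replicate 3 and at most 4.29 CPM in the others of its genotype. The other that fell, *ccnb1*, is named after its value was seen (log2 fold change -0.10, SE 0.04, edgeR adjusted p = 0.0412). Its genotypes overlapped. It encodes a mitotic cyclin, so its reads need not come from the maternal store. In the maternal list, only 1 fell with DESeq2, with the likelihood ratio test, with the replicate block, without the filter on low counts, and without wild-type replicate 1 or 2 or *miR-34a-/-* replicate 1, 2 or 3. Of 8 genes tested from the list of blastula transcripts, 2 rose and 1 fell, with a median of 0.06, *vent* at 0.35 (SE 0.06) and *pou5f3* at 0.12 (SE 0.04). Genes of this list can still be abundant in the gastrula, so it does not measure stage alone. *pou5f3* was read at 1190 ± 51.5 CPM in the wild-type (n = 4, SD). Only 1 rose without wild-type replicate 1 or *miR-34a-/-* replicate 4, and the 1 that fell was not called with DESeq2, with the likelihood ratio test, without the filter on low counts, or without wild-type replicate 1, 2 or 4 or *miR-34a-/-* replicate 1, 2 or 3. Of the genes listed for an onset in late gastrula, 5 were matched and only *her1* could be tested. It was already read at 91.6 ± 4.45 CPM in the wild-type (n = 4, SD), so it did not mark a late onset here. Its log2 fold change was -0.16 (SE 0.06, edgeR adjusted p = 0.028). *her1* was not called with DESeq2 or without wild-type replicate 1 or *miR-34a-/-* replicate 3. Without the filter on low counts, 3 genes of this list were lower. The other 4 were not tested for their low reads. *myod1* had between 4 and 8 counts in wild-type and between 0 and 5 counts in *miR-34a-/-* libraries, and *neurog1* between 6 and 16 and between 1 and 7 counts. For *pax8* the counts were between 1 and 6 and between 1 and 7, and for *rx3* between 2 and 11 and between 7 and 8. These raw counts overlapped between the genotypes for all 4, in libraries of unequal size. In CPM, *myod1* did not overlap, at 0.353 to 0.839 in wild-type and 0 to 0.321 in *miR-34a-/-* libraries. *neurog1*, *pax8* and *rx3* overlapped in CPM as well. The part of cell type or stage in the levels of the replication genes was not tested.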

How the data were processed

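RNA sequencing of 8 zebrafish embryo pools was used, with 4 wild-type and 4 *miR-34a-/-* libraries grouped by their labels. The values are raw read counts per Ensembl gene as deposited, from reads that the authors trimmed (Trim Galore 0.4.4) and mapped to danRer11 (STAR 2.7.8). The counting program, the annotation release and the use of strand are not given in the sources used here, so reads of overlapping or near-identical genes could have been split.

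Counts were normalized by TMM, filtered by filterByExpr and compared between genotypes, with no other term, by the quasi-likelihood test of edgeR (edgeR 4.0.16, R 4.3.3), with Benjamini-Hochberg adjustment over 13842 genes. CPM are counts per 1000000 of the normalized library size. SEs of log2 fold changes were derived from the F statistics. The test was checked on simulated data. Libraries had 7132045 to 15724724 counts, and each replication gene had at least 31 counts in every library. Single genes were also compared by two-sided exact permutation tests of log2 CPM (prior count 2).

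The members and gene lists were chosen with earlier results of these data known. Symbols came from a table of gene names, which matched all 40 members, 116 of 146 companion symbols and 25 of 35 marker symbols. Named with values per library were genes past 1.5-fold and the smallest adjusted p-value of each role. *rfc1* was added after its value was seen. Of each companion list, the 2 smallest adjusted p-values and called genes past 2-fold were named. Alternatives were RLE, upper quartile and total-count scaling, other filters, DESeq2 1.42.0, limma-voom (limma 3.58.1), glmTreat, a likelihood ratio test, a replicate block, thinned counts and leaving out each library. Promoter and protein sequences and levels per transcript length were not analysed here. Plots were made with matplotlib 3.10.9 (Python 3.11.15).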

Additional observations from a re-analysis of the deposited data

Results flagged for a closer look

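Among the 82 groups of 4 libraries formed by the 41 replication genes and both genotypes, 6 held a library far from the other 3 of its group by Dixon's criterion, which chance alone reaches in about 1 group in 20. *miR-34a-/-* replicate 3 was the highest of its genotype in 4 of them. It had 308 CPM of *mcm4* against 294 to 296 CPM in the others, 72.0 CPM of *mcm10* against 62.9 to 63.2 CPM, 159 CPM of *gmnn* against 143 to 146 CPM, and 1048 CPM of *pcna* against 997 to 1003 CPM. Wild-type replicate 4 had 86.0 CPM of *mcm10* and its 3 companions 80.8 to 81.6 CPM. *miR-34a-/-* replicate 4 had 54.1 CPM of *pole* against 61.6 to 62.2 CPM in the others of its genotype. For the 4 of these genes that were called, the genotypes did not overlap.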

How the results depend on the processing

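Under the 18 alternatives to the test across all genes, between 27 and 32 replication genes were lower, and between 27 and 31 of the 31 reported were among them. The lowest count, 27, came without wild-type replicate 1, and 28 remained with DESeq2 and without *miR-34a-/-* replicate 4. Of the 41 genes, 34 kept their direction and their side of the threshold under all 18. *mcm8* was called lower under 4 of them, and *orc5*, *gins1*, *rpa2* and *fen1* were not called under between 3 and 6. Leaving out each library in turn, the log2 fold change of *gmnn* ranged from -0.049 to 0.0053 and that of *pold2* from -0.19 to 0.09. That of *gmnn* changed sign to 0.0026 without wild-type replicate 4, 0.0010 without *miR-34a-/-* replicate 2 and 0.0053 without *miR-34a-/-* replicate 4, and that of *pold2* to 0.086 without wild-type replicate 1. None of these was called, and the cause was not tested. The number of genes lower past 1.5-fold was 1 at a cut-off of at least 2-fold and 3 with glmTreat, both stricter by construction. Other scalings moved the median log2 fold change of all genes to between -0.02 and -0.00. The replicate numbers did not pair the libraries (correlation of deviations between -0.03 and 0.01), and with a replicate block 31 of the genes were lower. Counts thinned to the smallest library also left 31 lower, 30 of them among those reported. Low reads limit the precision for *orc2*, *orc5*, *gins2*, *pold2* and *mcm8*, whose SEs were between 0.12 and 0.18.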
